A study of Homo sapiens with 48 samples.

Results

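The genes described here build the ribosome of mitochondria and bring proteins into that organelle. They were every probe set of the array whose annotated symbol begins with MRPL or MRPS and a digit, or with TIMM or TOMM. Of 22215 probe sets tested, 92 named such a gene, and 87 of these named that gene alone. The 87 consisted of 35 MRPL, 29 MRPS, 16 TIMM and 7 TOMM probe sets, which stood for 31, 20, 11 and 5 genes, or 67 of the 11963 genes measured. The remaining 5 probe sets also named another gene and are described apart.

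RNA was measured in K562 cells, an established human leukaemia line with the fusion kinase BCR-ABL1, which imatinib inhibits. In 24 samples the cells had received 1 micromolar imatinib for 24 hours, and in 24 samples they had been mock treated. The samples fell into 8 sets named A to H, with 3 samples of each treatment in a set. The labels say neither what a set letter marks nor whether samples came from separate cultures, and a p-value therefore speaks of how far these arrays scatter, part or all of which may be technical. Each array was prepared from roughly 8 micrograms of RNA. The imatinib RNA was isolated with a column kit alone and received a reduced amount of spike controls, whereas the mock RNA was isolated with Trizol followed by the column kit and received the full amount. Isolation method and treatment ran together in all 8 sets and cannot be told apart. Each array holds pooled RNA, so fewer cells with a transcript and less of it per cell cannot be told apart either. All 10 measured K562 markers, among them the globin gene HBE1 and the erythroid factor GATA1, were brighter than the median probe set, and 0 of 8 monocyte and granulocyte markers were. Of the other marker lists, 4 of 6 T cell, 3 of 5 B cell and 4 of 8 fibroblast and epithelial markers were. At or above that level lay 6974 of all 11963 genes, each by its brightest probe set. All 10 K562 markers were also called higher after imatinib in the combined fit described below. Their mean log2 level lay between 9.92 and 11.74 in imatinib samples, against 8.78 to 10.66 in mock samples, and the embryonic globin gene HBZ had 8.73-fold the mock level. Of the T cell markers 1 was called lower and 2 higher. The lower one was CD3D, a chain of the T cell receptor complex, with a log2 level of 6.39 in imatinib samples and 8.12 in mock samples. The B cell list had 4 of 5 markers called higher and 0 lower, the monocyte and granulocyte list 2 higher and 1 lower, and the fibroblast and epithelial list 3 higher and 1 lower. For comparison, 41.6% of all genes, each by its brightest probe set, were called higher in that fit and 27.1% lower. With arrays centred, 1 B cell and 0 monocyte and granulocyte markers were called higher, against 3644 of all 11963 genes. The part of these markers in the results was not tested.

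Mitochondria keep a small genome that encodes a few subunits of the respiratory chain and ATP synthase, and a ribosome of their own translates these. Its RNA comes from the mitochondrial genome, while its proteins, the MRPL and MRPS families of the large and small subunit, are encoded in the nucleus, made in the cytosol and imported. Import starts at the TOM complex of the outer membrane. From there the TIM23 complex carries proteins with a presequence into the matrix or inner membrane, the TIM22 complex inserts carrier proteins, and small TIM chaperones guide hydrophobic cargo through the intermembrane space.

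After imatinib most of these genes were lower, by small to moderate amounts. In the combined fit of 24 imatinib against 24 mock samples, 63 of the 87 probe sets were called lower, 6 higher and 18 neither (limma, adjusted p under 0.05 over all probe sets). Of all probe sets, 25.8% were called lower and 39.3% higher. The median log2 change was -0.30 for the 87 probe sets and 0.05 over all 22215. With the brightest probe set standing for a gene, 54 of 67 genes were called lower and 5 higher, against 27.1% and 41.6% of all 11963 genes, and the median change was -0.34. In fold terms these were modest shifts, and 3 of the 87 were at least 2-fold lower, against 2.14% of all probe sets. These were MRPL3, TIMM10 and TIMM13. No probe set was at least 2-fold higher (0 of 87, against 1.49% of all).

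Scaling moved the counts but not the side on which the group lay. With arrays centred on their median, 67 of 87 were called lower and 5 higher, and 57 and 9 after quantile normalization within sets. Over all probe sets the calls were nearly balanced after centring, with 6638 lower and 6194 higher. After quantile normalization 5761 of all 22215 were called lower and 7394 higher. The median change of the 87 was -0.335 after centring and -0.205 after quantile normalization.

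**Figure D1:**
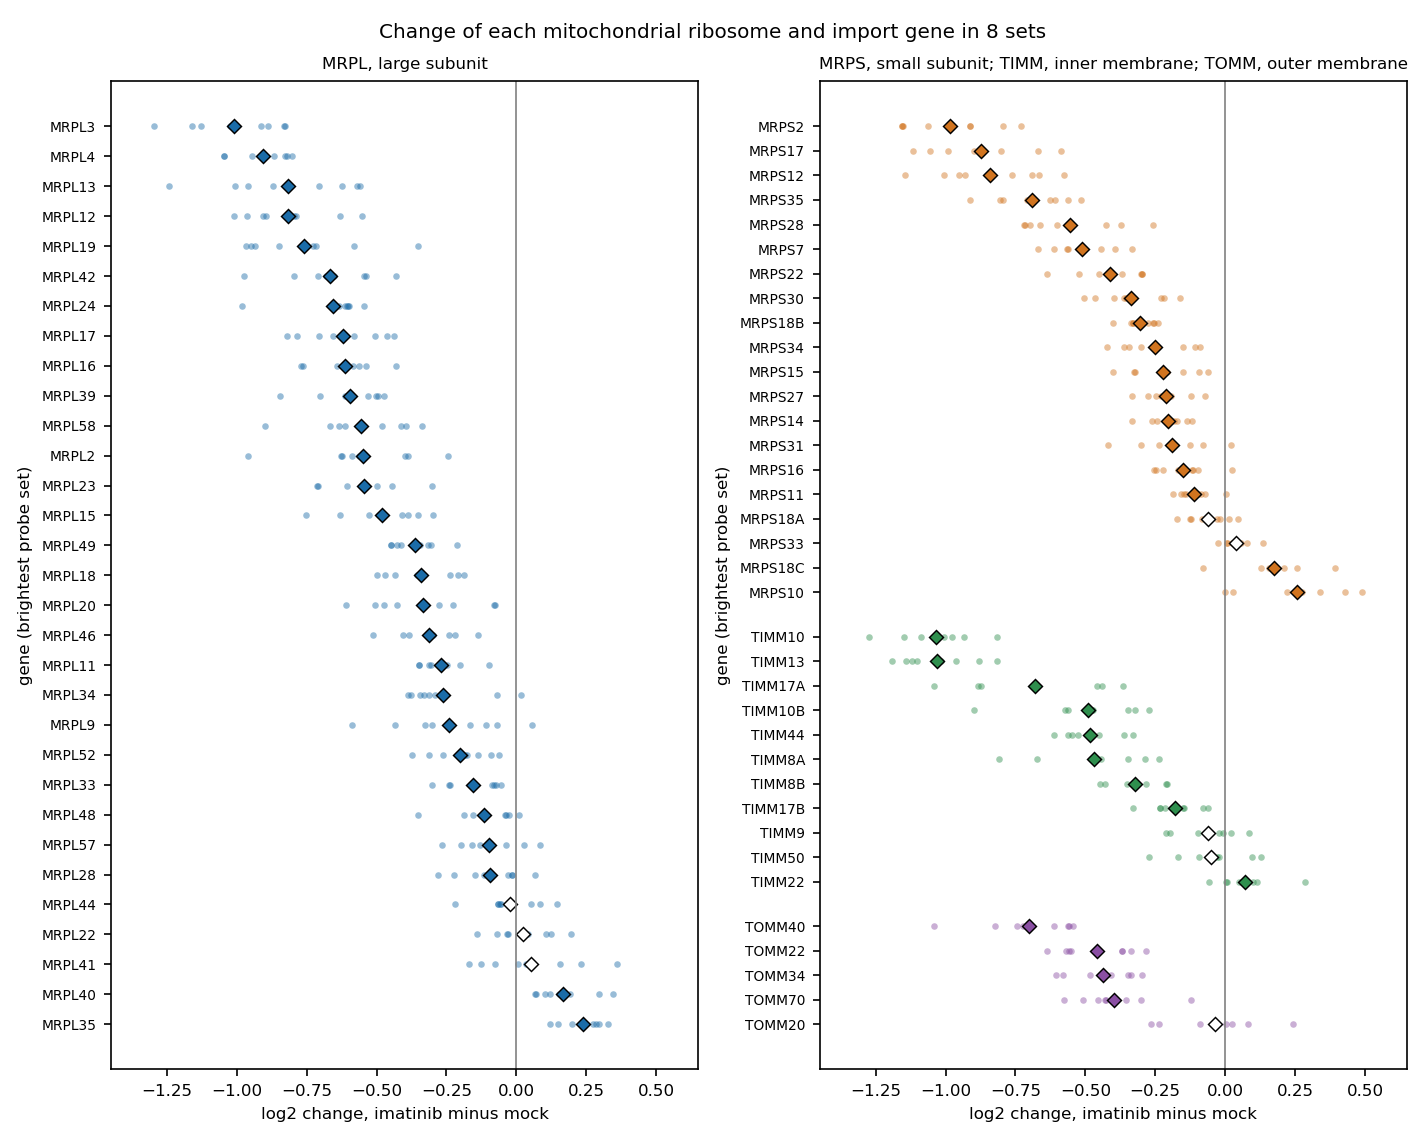
Log2 change (imatinib minus mock) of each of the 67 genes by its brightest probe set. Small points are the 8 sets and diamonds the combined fit, filled where the adjusted p was under 0.05; most diamonds lie left of 0, from -1.04 for TIMM10, and the highest is MRPS10 at 0.26.

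Calls were fewer among the dim probe sets. Of the 87, 72 were at least as bright as the median probe set, and 60 of these were called lower and 3 higher, against 40.1% and 40.2% of all probe sets at such a level. Of the 15 dimmer ones, 3 were called lower, 3 higher and 9 neither, with a median change of 0.00. Across the 87 probe sets, which are not independent, level and change correlated with a Pearson r of -0.32, and across all 22215 with -0.11.

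The promoter windows of the gene with the largest fall in each class are shown first, with TOMM20 beside them as a gene of the import gate without a called change. Each window runs from 250 bases before to 50 bases after the RefSeq start on GRCh38.p14, 5′ to 3′ on the gene's strand. Capitals mark matches, on either strand, to 4 motifs of factors known to act at genes for mitochondrial proteins: the E-box CACGTG bound by MYC and related factors, the NRF1 motif, CCGGAAG of ETS factors such as GABPA, and AAGATGGCG of YY1. The windows lie at chr3:131502922-131503221 (minus strand) for MRPL3, chr9:135499715-135500014 (plus strand) for MRPS2, chr11:57530705-57531004 (minus strand) for TIMM10, chr19:44891004-44891303 (plus strand) for TOMM40 and chr1:235128788-235129087 (minus strand) for TOMM20.
MRPL3: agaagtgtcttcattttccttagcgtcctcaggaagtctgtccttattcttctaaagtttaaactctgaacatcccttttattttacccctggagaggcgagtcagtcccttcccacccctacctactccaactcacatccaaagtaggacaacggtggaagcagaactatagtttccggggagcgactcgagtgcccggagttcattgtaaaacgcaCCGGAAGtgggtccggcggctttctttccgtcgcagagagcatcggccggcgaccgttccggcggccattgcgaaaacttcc
MRPS2: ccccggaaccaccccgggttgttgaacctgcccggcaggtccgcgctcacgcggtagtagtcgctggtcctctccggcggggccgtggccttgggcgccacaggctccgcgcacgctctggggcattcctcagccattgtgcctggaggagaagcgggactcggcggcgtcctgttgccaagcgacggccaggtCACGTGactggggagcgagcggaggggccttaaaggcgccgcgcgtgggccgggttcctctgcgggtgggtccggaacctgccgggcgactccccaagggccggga
TIMM10: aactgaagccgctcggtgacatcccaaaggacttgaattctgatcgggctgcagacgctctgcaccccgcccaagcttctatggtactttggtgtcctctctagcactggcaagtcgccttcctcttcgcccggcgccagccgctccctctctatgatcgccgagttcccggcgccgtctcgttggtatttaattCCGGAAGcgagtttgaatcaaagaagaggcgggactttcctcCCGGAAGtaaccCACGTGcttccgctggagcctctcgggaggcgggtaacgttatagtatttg
TOMM40: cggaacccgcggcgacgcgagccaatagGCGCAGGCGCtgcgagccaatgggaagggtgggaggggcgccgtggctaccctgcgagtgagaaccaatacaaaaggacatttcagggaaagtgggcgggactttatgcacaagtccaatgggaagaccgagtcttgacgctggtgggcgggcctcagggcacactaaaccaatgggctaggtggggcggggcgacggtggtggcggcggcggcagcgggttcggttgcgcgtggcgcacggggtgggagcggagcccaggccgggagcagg
TOMM20: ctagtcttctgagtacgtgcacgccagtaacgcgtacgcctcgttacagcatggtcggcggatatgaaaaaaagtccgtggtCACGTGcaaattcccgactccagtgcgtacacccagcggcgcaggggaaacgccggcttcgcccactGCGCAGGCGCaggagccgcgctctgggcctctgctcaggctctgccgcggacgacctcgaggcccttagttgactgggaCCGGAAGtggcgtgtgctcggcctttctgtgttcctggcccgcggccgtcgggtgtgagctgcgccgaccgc

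The MRPL3 window held an ETS match that began 32 bases before the start. In TIMM10 ETS matches began 55 and 13 bases before the start and an E-box 1 base before it. MRPS2 had an E-box 56 bases before the start in this window and no match in the window of its other listed start. TOMM40 had an NRF1 match 222 bases before the start. TOMM20, whose level did not pass the test, held 3 of the 4 motifs: an E-box, an NRF1 match and an ETS match, which began 168, 101 and 22 bases before the start. A match is a string of letters and not a measured binding site.

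Windows were listed for 60 of the 67 genes, 72 in all, since some genes have several starts. The ETS letters were in 28 of the 72, or 38.9%, against 13.1% of 14058 windows of all measured genes and 10.3% of all 35116 windows. YY1 letters were in 9 (12.5%, against 2.82% and 1.75%). NRF1 and E-box letters were in 8 windows each (11.1%); the shares in measured genes were 7.83% for NRF1 and 8.76% for the E-box, and in all windows 5.78% and 7.26%. No ETS match overlapped a YY1 match. At least 1 of the 4 motifs was in 43 windows, or 59.7%, against 27.8% of windows of measured genes. In 59 windows of genes called lower, 37.3% held ETS letters and 6.78% an E-box, and in the 13 windows of the other member genes 46.2% and 30.8% did. Some windows of the same gene overlap and hold the same match. Counted by gene, ETS letters were in 26 of 60 member genes, YY1 in 9, the E-box in 8 and NRF1 in 7. No count by gene was made for the other genes. These shares are descriptions and were not tested.

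Large-subunit genes were mostly lower. Of 31 MRPL genes, 26 were called lower, 2 higher and 3 neither, with a median log2 change of -0.34. MRPL3, whose bacterial relative lies near the site of peptide bond formation, was the lowest. In set E its level was 8.29, 7.62 and 8.11 in the imatinib samples, against 9.43, 9.34 and 9.14 in the mock samples. In set F it was 9.12, 9.0 and 9.21 in the imatinib samples and 9.95, 10.03 and 9.83 in the mock samples. These were the sets with the largest and the smallest difference, and in both, as in the other 6, every imatinib sample lay below every mock sample. Over all sets MRPL3 ranged from 7.62 through a median of 9.21 to 10.28 in the 24 imatinib samples and from 9.14 through 10.26 to 11.34 in the 24 mock samples. The ranges overlap across sets, whose overall levels differ. The change within sets was -1.01 ± 0.04 (SE, n = 24 per treatment; limma adjusted p = 4.34e-26), between -1.29 in set E and -0.83 in set F, and mock samples had 2.01-fold the level of imatinib samples.

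MRPL4, whose bacterial relative lines the tunnel through which the new chain leaves, changed by -0.91 ± 0.03 (adjusted p = 7.22e-30), and its sets ranged narrowly from -1.05 to -0.80. In set A its level was 8.41, 8.31 and 8.41 in the imatinib samples, against 9.28, 9.15 and 9.19 in the mock samples. MRPL12, which sits on the stalk that contacts translation factors, fell by 0.82 ± 0.05 and ranged from -1.01 in set F to -0.55 in set H. MRPL19 fell by 0.76 and MRPL42 by 0.67. In MRPL4, MRPL12 and MRPL42 the imatinib samples lay below the mock samples in all 8 sets, and in MRPL19 they did so in 7. MRPL58, a hydrolase that frees stalled ribosomes and is also built into the large subunit, fell by 0.55 (named after its value was seen), between -0.90 in set C and -0.34 in set A.

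In the combined fit MRPL13 and MRPL2 were the members whose change differed between sets by the test of the set-by-treatment terms (2 of 87, against 7.20% of all probe sets). Both calls depended on the setting. MRPL13 lost it without set C (adjusted p = 0.228) and without set F (0.0629), and MRPL2 lost it with arrays centred (0.0589), without set B (0.0802) and without set F (0.0689). TIMM8A and TIMM17A passed after quantile normalization. MRPL13 and MRPL2 both encode core proteins of the large subunit with bacterial relatives. MRPL13 changed by -0.82 ± 0.05 overall. In set C its level was 7.07, 6.98 and 6.95 in the imatinib samples, against 7.96, 8.25 and 8.50 in the mock samples, a change of -1.24. In set A it was 7.90, 7.54 and 7.99 in the imatinib samples and 8.37, 8.38 and 8.35 in the mock samples, a change of -0.56. The treatments did not overlap in either set, so the sets differed in the size of the fall (adjusted p = 0.03). MRPL2 changed by -0.55 ± 0.05 overall. In set F its level was 7.76, 7.70 and 7.71 in the imatinib samples, against 8.24, 8.82 and 8.99 in the mock samples, a change of -0.96. In set B it was 9.07, 9.07 and 9.01 in the imatinib samples and 9.05, 9.44 and 9.39 in the mock samples, a change of -0.25. In set B the treatments overlapped through 1 mock sample (adjusted p of the difference between sets = 0.0247).

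MRPL35 and MRPL40 went the other way. MRPL35 was higher by 0.24 ± 0.03 (adjusted p = 3.67e-09). In set H its level was 9.53, 9.84 and 9.67 in the imatinib samples, against 9.23, 9.44 and 9.39 in the mock samples. In set E it was 8.40, 7.92 and 8.18 in the imatinib samples and 8.08, 8.00 and 8.05 in the mock samples, and there the treatments overlapped. The imatinib samples lay above the mock samples in the 7 sets other than E. MRPL40 was higher by 0.17 ± 0.03 (adjusted p = 1.55e-05), above 0 in all 8 sets and free of overlap in 3. Both kept their call under both other scalings. The probe set of MRPL35 is of a kind that the array's maker marks as able to bind other transcripts as well. Those of MRPL41, MRPL44 and TIMM22, described below, are of the same kind. Nearest to 0 among the genes called lower were MRPL28 and MRPL57 (named after their values were seen), which both fell by 0.10. The other probe sets of MRPL57, at -0.01 and -0.04, were not called. The 3 genes without a call, named after their values were seen, were MRPL22 with a change of 0.02, MRPL41 with 0.05 and MRPL44 with -0.02. MRPL41 and MRPL44 were dimmer than the median probe set.

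**Figure D2:**
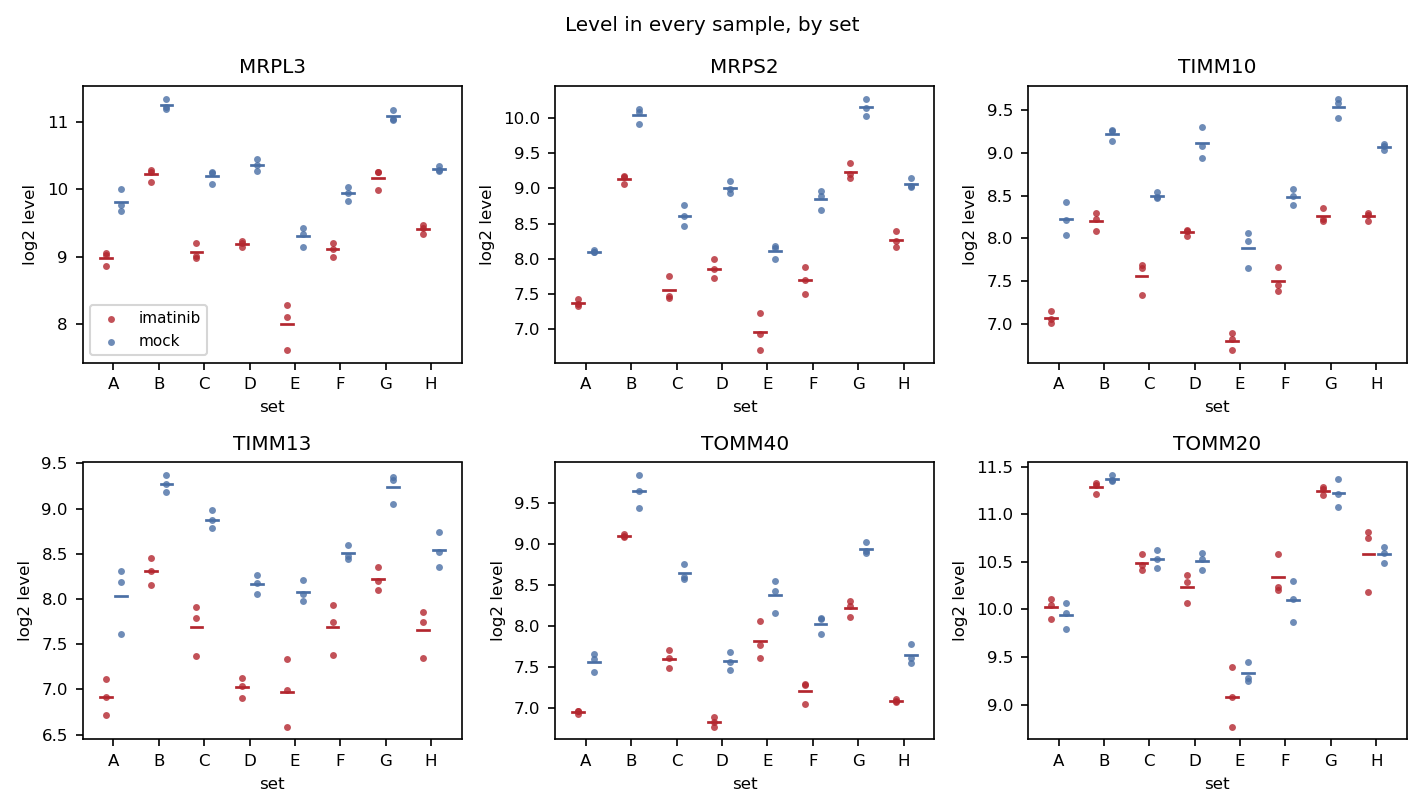
Log2 level of 6 genes in each sample, by set, with imatinib samples in red left of mock samples in blue and a bar at the mean of 3. The treatments do not overlap in any set for MRPL3, MRPS2, TIMM10, TIMM13 and TOMM40, whereas for TOMM20 they overlap in 6 of 8 sets.

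Genes with MRPS symbols, most of them of the small subunit, were mostly lower too, with a median closer to 0. Of 20 MRPS genes, 16 were called lower, 2 higher and 2 neither, with a median of -0.24. The difference in median from the MRPL genes was not tested. The classes go by symbol, and MRPS30 and MRPS18A, counted here, belong to the large subunit. MRPS2 was the lowest with a change of -0.98 ± 0.04 (adjusted p = 7.26e-26). In set A its level was 7.33, 7.35 and 7.42 in the imatinib samples, against 8.12, 8.09 and 8.09 in the mock samples. In set E it was 7.23, 6.70 and 6.93 in the imatinib samples and 8.00, 8.15 and 8.18 in the mock samples. Set A had the smallest and set E the largest difference, at -0.73 and -1.16, and neither held an overlap.

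MRPS17 fell by 0.87 ± 0.05, between -1.12 in set E and -0.59 in set F. MRPS12, whose bacterial relative lies at the decoding site and carries streptomycin resistance mutations, fell by 0.84 ± 0.05. In set C its level was 8.09, 8.14 and 7.90 in the imatinib samples, against 9.12, 9.22 and 9.23 in the mock samples. The other probe sets of MRPS12, all dimmer, gave -0.32, 0.06 and -0.19, of which the middle one was not called. MRPS35 fell by 0.69, MRPS28 by 0.56 and MRPS7 by 0.51. Of these genes MRPS28 held an overlap in 1 set, and the others in none. MRPS16 fell by 0.15 and MRPS11 by 0.11, the called falls nearest to 0 (named after their values were seen). The other probe set of MRPS11, a dim one, gave -0.03 and was not called.

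MRPS10 and MRPS18C were higher. MRPS10 was higher by 0.26 ± 0.05 (adjusted p = 2.27e-05), and its sets ranged from 0.00 in set E to 0.49 in set A. In set A its level was 7.89, 7.98 and 8.03 in the imatinib samples, against 7.37, 7.56 and 7.51 in the mock samples. In set E the imatinib samples, at 7.51, 6.75 and 7.18, lay on both sides of the mock samples, at 7.28, 7.17 and 7.0. MRPS18C, a dim probe set, was higher by 0.18 ± 0.03, with changes from -0.08 in set C to 0.39 in set H. It belongs with MRPS18A and MRPS18B to a family of 3 related proteins. MRPS18B fell by 0.30, and MRPS18A had a change of -0.06 that did not pass, while its other probe set fell by 0.18. MRPS18A and MRPS18B, and MRPS33 with 0.04 and no call, were named after their values were seen. MRPS14 was the 1 gene whose probe sets were called in opposite directions. The bright one, at a mean level of 9.84 in imatinib and 10.05 in mock samples, fell by 0.21, and the dim one, at 4.82 in imatinib and 4.64 in mock samples, was higher by 0.19.

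Mitoribosome proteins with a bacterial relative and those that mitochondria added later both moved downward for the most part. Of 33 measured genes with a bacterial relative, 28 were called lower and 3 higher, with a median of -0.34, and of 18 without one, 14 were called lower and 1 higher, with a median of -0.23. The medians were not tested against each other. Some symbols do not name the subunit in which the protein sits: MRPS30 and MRPS18A are part of the large subunit in structures of the human particle. MRPS30 fell by 0.34 (named after its value was seen). Its other probe set gave -0.01 and was not called.

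Import genes of the inner membrane and the intermembrane space were mostly lower. Of 11 TIMM genes, 8 were called lower, 1 higher and 2 neither, with a median of -0.47. The small TIM chaperones of the intermembrane space were 6 of these, of which 5 were called lower, with a median of -0.48. TIMM10 was the lowest of all 67 genes. In set G its level was 8.23, 8.20 and 8.35 in the imatinib samples, against 9.40, 9.58 and 9.63 in the mock samples. In set H it was 8.27, 8.20 and 8.30 in the imatinib samples and 9.10, 9.08 and 9.03 in the mock samples. No set held an overlap. The change was -1.04 ± 0.04 (adjusted p = 1.91e-28), between -1.28 in set G and -0.82 in set H, and mock samples had 2.05-fold the level of imatinib samples.

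TIMM9, the partner with which TIMM10 forms a ring of alternating subunits, did not pass. Its change was -0.06 ± 0.03 (adjusted p = 0.115). In set H its level was 8.52, 8.62 and 8.72 in the imatinib samples, against 8.50, 8.56 and 8.54 in the mock samples. In set E it was 7.12, 6.82 and 6.90 in the imatinib samples and 7.14, 7.07 and 7.27 in the mock samples. The samples overlapped in both sets, and set changes ran from -0.21 to 0.09. With arrays centred on their median its change was -0.10 and passed (adjusted p = 0.0297). After quantile normalization its change was -0.009 and did not pass (adjusted p = 0.825).

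TIMM8A and TIMM13 form a ring of the same kind, and loss of TIMM8A causes a syndrome of deafness and dystonia. TIMM13 changed by -1.03 ± 0.06 (adjusted p = 1.14e-21), between -1.19 in set C and -0.82 in set F. In set A its level was 7.12, 6.72 and 6.92 in the imatinib samples, against 8.31, 8.19 and 7.61 in the mock samples, which were wide apart among themselves and still all higher. TIMM8A fell by 0.47 ± 0.04, from a level dimmer than the median probe set. In set B its level was 5.87, 6.13 and 6.16 in the imatinib samples, against 6.96, 6.83 and 6.80 in the mock samples, and the treatments were apart in all 8 sets. TIMM8B fell by 0.32 ± 0.03, also with no overlap in any set. A dimmer probe set of TIMM8A, with a change of 0.00, was not called. TIMM10B, which joins small TIM rings to the TIM22 complex, fell by 0.49 ± 0.05, between -0.90 in set C and -0.27 in set D.

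Among the TIMM genes of the membrane complexes, TIMM17A, a channel subunit of TIM23, changed most, with a fall of 0.68 ± 0.05. In set E its level was 8.18, 7.50 and 7.94 in the imatinib samples, against 9.11, 8.93 and 8.70 in the mock samples, and in set F it was 9.49, 9.39 and 9.60 in the imatinib samples and 9.94, 9.92 and 9.71 in the mock samples. Set changes ran from -1.04 to -0.37, with no overlap in any set, and the test of a difference between sets did not pass (adjusted p = 0.0569). A further bright probe set of TIMM17A gave -0.66, and both dim ones, at 0.01 and 0.03, were not called. TIMM17B, its paralog, fell by 0.18 ± 0.03, a call lost after quantile normalization (change -0.03, adjusted p = 0.429). TIMM44, which anchors the import motor at TIM23, fell by 0.49 ± 0.04 with no overlap in any set. TIMM50, the receptor of TIM23, had a change of -0.05 (adjusted p = 0.137), and its call was gained under both other scalings, at -0.09 and -0.08. TIMM22, the channel of the carrier pathway, was higher by 0.07 ± 0.03 (adjusted p = 0.0414), a call that either other scaling removed. The probe sets of TIMM50 and TIMM22 were dimmer than the median probe set.

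The pore and most other TOM-class genes were lower. Of 5 TOMM genes, 4 were called lower and TOMM20 was not called, with a median of -0.44. TOMM40 forms the pore through which nearly all imported proteins pass. In set C its level was 7.70, 7.61 and 7.48 in the imatinib samples, against 8.75, 8.57 and 8.60 in the mock samples. In set B it was 9.09, 9.08 and 9.12 in the imatinib samples and 9.44, 9.65 and 9.84 in the mock samples. The change was -0.70 ± 0.04 (adjusted p = 1.11e-20), between -1.04 in set C and -0.55 in set B, and no set held an overlap.

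TOMM22, which holds the pores of the complex together, fell by 0.46 ± 0.05. TOMM70, the receptor for carrier proteins and chaperone-bound cargo, fell by 0.40 ± 0.04, from -0.57 in set E to -0.12 in set F. TOMM34, a largely cytosolic cochaperone of preproteins despite its name, fell by 0.44 ± 0.03 and was apart in all 8 sets. TOMM20, the main receptor for presequences, had a change of -0.04 ± 0.05 (adjusted p = 0.522). In set D its level was 10.07, 10.29 and 10.36 in the imatinib samples, against 10.53, 10.41 and 10.59 in the mock samples. In set F it was 10.24, 10.20 and 10.58 in the imatinib samples and 10.11, 10.30 and 9.87 in the mock samples. Set changes ran from -0.27 in D to 0.24 in F, so no direction held across the sets. Its other probe set, at 0.05, was not called either. After quantile normalization TOMM20 was called higher, by 0.09 (adjusted p = 0.0309).

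The probe sets that also named another gene followed the same range. TIMM23 encodes the central channel of the TIM23 complex and shares its 2 probe sets with the near-identical TIMM23B, so the signals cannot be told apart. They changed by -0.58 and -0.66, with no overlap in any set. A probe set for TOMM6, a small subunit around the pore, and PRICKLE4 changed by -0.56, also with no overlap. The probe set for TOMM7, another small subunit, and C4orf46 was higher by 0.18, and that for the pseudogene MRPS31P5 and THSD1 was higher by 0.12.

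Each set alone showed the same tilt. Fitted alone with 3 samples of each treatment, the sets called 40 of the 87 probe sets lower in A, against 14.7% of all probe sets, 52 in B (19.9%), 53 in C (20.1%) and 55 in D (18.0%). They called 38 lower in E (12.1% of all), 27 in F (9.47%), 44 in G (16.0%) and, last, 34 in H (11.8%). Of the 87, 63 were called lower in at least 1 set, against 26.4% of all probe sets, and 7 were called higher in at least 1, against 40.0%. The 7 were the brightest probe sets of MRPL35, MRPL40, MRPS10 and MRPS18C and dimmer ones of MRPS12, MRPS14 and TOMM20. The median change of the 87 lay between -0.40 in set C and -0.16 in set H. In 55 of the 87 the log2 change was below 0 in all 8 sets, against 19.2% of all probe sets. In 27 the imatinib samples lay below the mock samples in every set, against 8.60% of all probe sets, and 22 were called lower in all 8 sets, against 6.57%. None of the 87 was called higher or lay apart upward in all 8 sets (0 of 87, against 3.94% called and 5.43% apart). Across the 87 probe sets the changes of a pair of sets correlated with Pearson r from 0.75 to 0.93 (median 0.88, 28 pairs). Whether the sets share a source of RNA is not given in the labels.

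**Figure D3:**
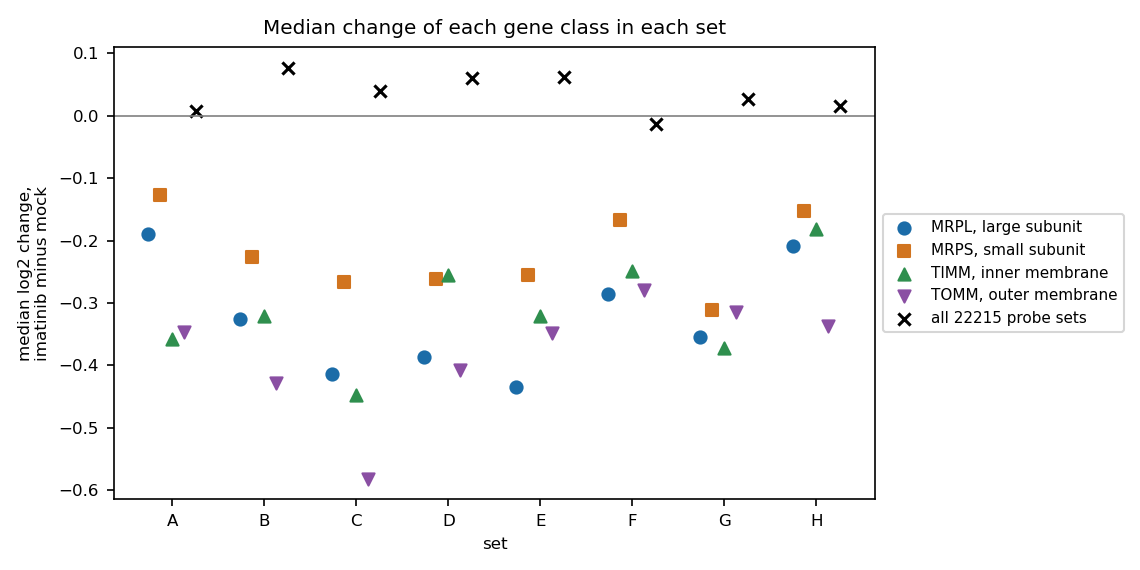
Median log2 change (imatinib minus mock) of the MRPL, MRPS, TIMM and TOMM probe sets in each of the 8 sets, with crosses for all 22215 probe sets. Every class median lies below 0 in every set, the lowest being TOMM in set C at -0.58, while the crosses lie between -0.01 and 0.08.

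Among genes that serve the mitoribosome, more were called lower than higher. All counts in this and the next paragraph are of genes by the brightest probe set, in the combined fit, in which 27.1% of all genes were called lower and 41.6% higher. Of 3 mitoribosome proteins with other names, GADD45GIP1 fell by 0.60 and PTCD3 by 0.38, while DAP3 had a change of 0.06 that did not pass, except upward after quantile normalization. Of 8 mitochondrial translation factors, 5 were called lower and 0 higher, with a median of -0.29. TUFM, the elongation factor that brings tRNA to the ribosome, fell by 0.77, its exchange factor TSFM by 0.46, and the initiation factor MTIF2 by 0.47. Of 19 genes of mitoribosome assembly and rRNA modification, 14 were called lower and 4 higher, with a median of -0.24. ERAL1, which chaperones the RNA of the small subunit, fell by 1.81, more than any member. TFB1M, which methylates that RNA, fell by 0.56, and the RNA-binding proteins NGRN and GRSF1 fell by 0.49 and by 0.46. The 4 that were higher, named after their values were seen, were MTERF4 by 0.11, FASTKD1 by 0.13, MTG1 by 0.14 and MTERF3 by 0.19. With arrays centred, 2 of the 19 were called higher, and 3 after quantile normalization. Of 15 genes of mitochondrial transcription, RNA processing and DNA upkeep, 12 were called lower and 0 higher, with a median of -0.62. There the transcription factors TFB2M and TFAM fell by 1.63 and by 1.11, and the polymerase gene POLRMT fell by 0.84.

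Among genes around the import machinery more were called lower than higher, except in the list of outer-membrane sorting and protein insertion. Of 14 genes of the import motor, presequence processing and folding, 11 were called lower and 2 higher, with a median of -0.56. The matrix chaperone HSPA9, which pulls proteins in, fell by 1.21 and its exchange factor GRPEL1 by 0.99. PMPCB, a subunit of the peptidase that removes presequences, was higher by 0.56 (named after its value was seen), while its partner PMPCA fell by 0.64 (likewise). Of 10 mitochondrial proteases and prohibitins, 9 were called lower and 1 higher, with a median of -0.42. PHB1, a scaffold of the inner membrane, fell by 1.24 and the matrix protease LONP1 by 1.12, and HTRA2, a protease of the intermembrane space, was higher by 0.85. Of 8 genes of outer-membrane sorting and protein insertion, 4 were called lower and 4 higher. MTX2 fell by 0.56, while SAMM50, the pore that inserts beta-barrel proteins such as TOMM40, was higher by 0.47. With arrays centred, 2 of these 8 were called higher.

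Among 13 regulators known to act on genes for mitochondrial proteins, 7 were called lower and 4 higher, against 27.1% and 41.6% of all genes. With arrays centred, 7 of these regulators were called lower and 2 higher. MYC fell by 1.36, the coactivator PPRC1 by 0.69 and YY1 by 0.44. GABPA and NRF1, whose motifs were searched above, fell by 0.23 and by 0.12, and GABPB1, the partner of GABPA, was higher by 0.18 (these 3 named after their values were seen). The proteins of the cytosolic ribosome served as a comparison. Of 31 measured RPL genes, 5 were called lower and 10 higher, with a median of 0.02, and of 19 RPS genes 3 lower and 11 higher, with a median of 0.05. Called lower were thus 16.1% of the RPL and 15.8% of the RPS genes, against 27.1% of all genes, and called higher 32.3% and 57.9%, against 41.6%. Those counts depended on scaling: with arrays centred, 6 RPL genes were called lower and 2 higher, and 4 RPS genes each way. Their highest and lowest changes were 0.24 and -0.14, and their median log2 levels were 12.73 (RPL) and 13.04 (RPS), with 8.68 for the member genes. Whether their brightness bears on the size of their changes was not tested. These gene lists are described by their counts, and no difference between a list and the members was tested.

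**Figure D4:**
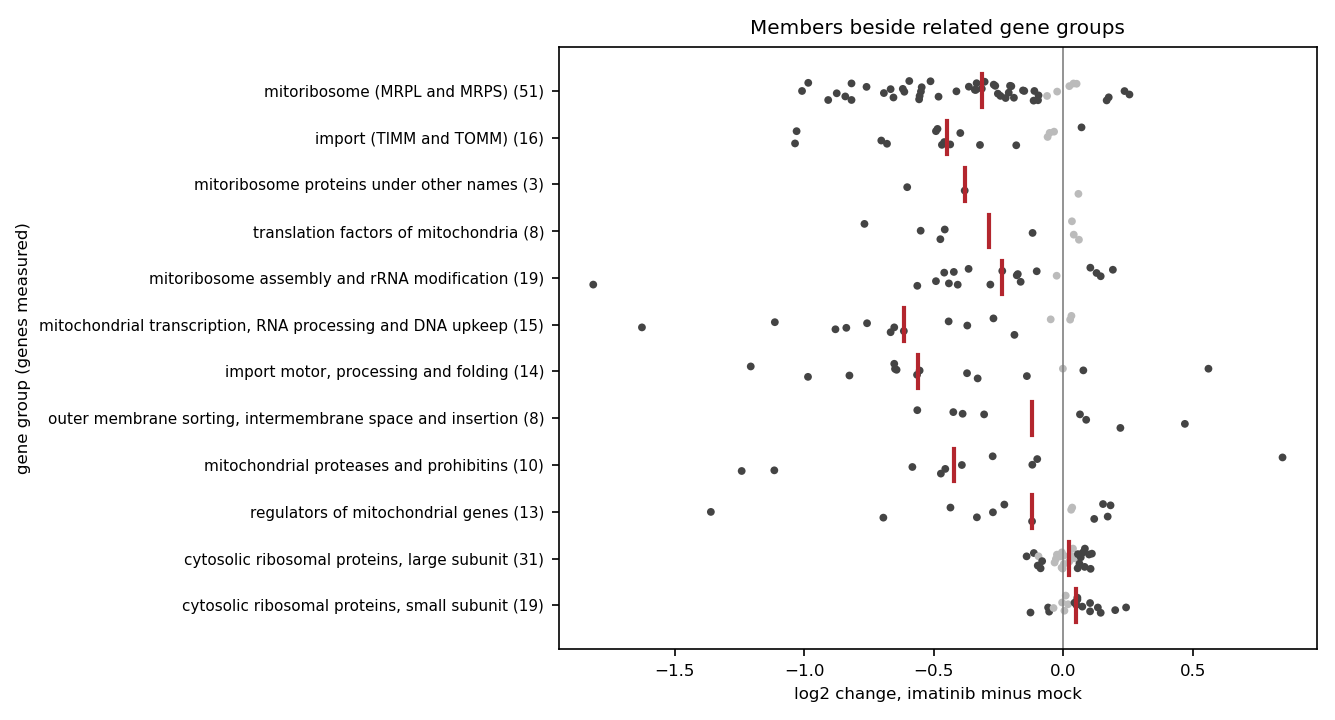
Log2 change (imatinib minus mock) of each gene in the combined fit, by gene group, with dark points for genes with an adjusted p under 0.05, grey points for the others and a red bar at the group's median. The MRPL, MRPS, TIMM and TOMM genes lie mostly left of 0, and the cytosolic ribosomal protein genes lie close to 0.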

How the data were processed

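Per the labels, RNA of K562 cells was hybridised to Affymetrix arrays, with treatment read from title and description; the keywords of the imatinib samples also say mock, and these were not used. The authors deposited 1 log2 value per probe set and sample. Range and spread of the values point to that log base; background correction, summary and normalization are not stated in any source used here. Means of arrays differed by at most 0.053 within a set and ranged from 5.89 to 7.60 over the sets, so changes were taken within sets. For arrays, the number of samples limits precision. The median replicate SD of the members lay between 0.064 and 0.177 over the groups of 3.

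Of 22283 probe sets, 68 controls were left out. The remaining 22215 were fitted with limma 3.58.1 (R 4.3.3; lmFit, eBayes, two-sided tests), with set as a factor, and each set was also fitted alone. A further fit tested set-by-treatment terms. Adjusted p-values are Benjamini-Hochberg values over all probe sets, with a threshold of 0.05, and errors are standard errors. The fits were tested on simulated data. Names come from the platform annotation, updated by the RefSeq gene table. In every class the named genes were the 6 with the lowest and the 4 with the highest log2 changes among those called, every TIMM and TOMM gene, those with opposite calls or a difference between sets, and up to 4 per related list with the smallest p. Genes named for another reason are marked in the text, except HBE1 and GATA1, which stand as examples of the K562 markers. The members, lists and tests were chosen with earlier results of these data known. No pair of replicates was identical: in the closest pair the largest difference was 0.67.

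Alternatives covered scaling, dim probe sets, the replicate number as a block, sets as replicates, the variance model and each sample or set left out. Deviations from the group mean correlated with a median of 0.016 in the 24 pairs of samples with the same number and -0.032 in the 48 other pairs, so the numbers were not taken to pair samples. Promoter windows come from RefSeq (GRCh38.p14) and matched 60 of 67 genes by symbol.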

Additional observations from a re-analysis of the deposited data

Results flagged for a closer look

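In MRPL2 and MRPL13, both of the large subunit, the change under imatinib differed between the 8 sets by the limma F test of the set-by-treatment terms. The adjusted p was 0.0247 for MRPL2, whose set changes ran from -0.96 in set F to -0.25 in set B, and 0.03 for MRPL13, whose set changes ran from -1.24 in set C to -0.56 in set A. All 8 set changes were below 0 in both genes. MRPL2 did not pass with arrays centred (adjusted p = 0.0589), without set B (0.0802) or without set F (0.0689), and MRPL13 did not pass without set C (0.228) or without set F (0.0629). What the set letters mark is not given in the labels, and a cause of the difference was not tested.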

How the results depend on the processing

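In the combined fit the count of probe sets called lower, 63 of 87, lay between 57 and 67 under every alternative run over the same 87, and was 63 with the replicate block; leaving out a sample gave 63 to 64, and leaving out a set 62 to 64. Among the 72 brighter probe sets 3 were called higher, against 6 of all 87, since fewer were tested, and the TIMM median was -0.488 there, against -0.350. After quantile normalization the MRPL median was -0.221, against -0.314, and TOMM20 turned to 0.088 (adjusted p = 0.0309). Members whose change differed between sets numbered 2 in the fit reported, 1 with arrays centred, 4 after quantile normalization, 1 without set B, 1 without set C, 1 without set F and 5 without set E. The 1 without set F was a dimmer probe set of MRPS12, as neither MRPL2 nor MRPL13 passed there. Beside those 2 genes, TIMM8A passed without set A, MRPL42 without set D and TIMM17A without set H. The causes were not tested. The block changed no call of a named gene. MRPS14 lost its call after quantile normalization (-0.05), as did TIMM17B (-0.03), while TIMM22 lost its call under both scalings, with sets as replicates, without set B, D, E, G or H, and in 18 of 48 fits that left out 1 sample. Fitted alone, set E called 38 lower, 27 to 53 with a sample left out and 51 with the spread shared over sets; set F called 27, 20 to 25 with a sample left out and 37 with the spread shared. Relative to its count in the main fit, no other set's count called lower moved as far, and none moved by over 1.5 times under any alternative. In plain counts, set B (52) ran from 43 to 62 and set D (55) from 45 to 58. Counts called higher in a set ran from 0 to 6 and moved by over 1.5 times in 33 of 88 alternatives. Dim probe sets limit the rest: of 15 below the median level, 9 were called neither way.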

Other observations

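Genes that start head to head can share a stretch of promoter, which was not measured here. Of the 60 member genes with a listed start, 21 had another gene starting on the opposite strand within 1000 bases. That was 35%, against 24.2% of 9563 measured genes. Of these 21 neighbours 12 were measured, and 6 were called lower, 3 higher and 3 neither way. Of the 6, 2 were the members MRPL46 and MRPS11, which are each other's neighbour. Of the 10 neighbours that are not members, 4 were called lower and 3 higher, against 27.1% and 41.6% of all genes. MRPL46 and MRPS11 start 320 bases apart, and both fell, by 0.31 and by 0.11. Both genes also fell in 3 pairs with a neighbour that is not a member. MRPL49 fell by 0.36 and FAU, 49 bases away, by 0.06 (limma adjusted p = 0.0427). MRPS18B fell by 0.30 and PPP1R10, 597 bases away, by 0.17, and MRPS27 fell by 0.21 and PTCD2, 133 bases away, by 0.11. TIMM9, with a change of -0.06 that did not pass, starts 188 bases from KIAA0586, which fell by 0.17. MRPS12 fell by 0.84, while SARS2, which starts 181 bases away, had a change of -0.02 (adjusted p = 0.576). MRPS2 fell by 0.98 and PIERCE1, 96 bases away, had a change of -0.05 (adjusted p = 0.321). TIMM17B fell by 0.18 and PQBP1, 162 bases away, had a change of -0.03 (adjusted p = 0.53). MRPS7 fell by 0.51 and GGA3, 273 bases away, was higher by 0.18. TIMM10B fell by 0.49 and ARFIP2, 170 bases away, was higher by 0.33. MRPL40, one of the few members that were higher, starts 812 bases from HIRA, which was higher by 0.55. These are all the measured pairs. They were looked at after their values were seen and are given as values.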
